A study of Homo sapiens with 14 samples.

Results

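Transcripts of 9 enzymes that make serine or carry one-carbon units on folate were followed through RNA-seq of 2 human leukaemia cell lines. The enzymes were chosen by gene symbol for their place in the pathway, by a rule that uses no measured value, although earlier results of these data were known. They are PHGDH, PSAT1 and PSPH of serine synthesis, SHMT1 and MTHFD1 of the cytosolic folate pathway, and SHMT2, MTHFD1L, MTHFD2 and ALDH1L2 of the mitochondrial folate pathway. They make up 9 of the 16336 gene symbols listed in at least 1 of 3 count tables. All 9 had a row in both MV4;11 tables and 8 had a row in the EOL-1 table. ALDH1L2 was not analysed in EOL-1. Every member with a row passed the filter on low counts, and the lowest estimated count of a member in a library was 197.

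MV4;11 is a myelomonocytic leukaemia line with a KMT2A rearrangement, and EOL-1 was derived from a patient with eosinophilic leukaemia. The 14 libraries form 7 groups of 2. In MV4;11 the groups were sgRNA 1 and sgRNA 5 against cMyc (sgcMyc) with their guide control sgEV, and a hairpin against EZH2 (shEZH2) with its control EV. In EOL-1 the groups were a guide against EZH2 (sgEZH2) and its own control sgEV. All libraries, controls included, came from cells given doxycycline at 1 µg/ml for 4 days, so no library shows either line without the drug. EZH2 is the histone methyltransferase subunit of Polycomb repressive complex PRC2, and cMyc, encoded by MYC, is a transcription factor of growth genes. EZH2 was depleted with a single hairpin in MV4;11 and a single guide in EOL-1, and the labels do not say whether the cells were clones or pools. The labels do not state whether the 2 libraries within each group are separate cultures. All p-values therefore rest on the spread between libraries, which may be technical.

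Serine synthesis starts from an intermediate of glycolysis, which PHGDH oxidises, PSAT1 transaminates and PSPH dephosphorylates to serine. The SHMT enzymes then pass a carbon from serine to tetrahydrofolate, leaving glycine, and the MTHFD enzymes oxidise or reduce that carbon. The cytosol (SHMT1, MTHFD1) and the mitochondria (SHMT2, MTHFD2, MTHFD1L) hold parallel sets of these reactions, and the carbon leaves the mitochondria as formate for the synthesis of purines and thymidylate. Many of these genes are known targets of ATF4, the transcription factor of the amino acid response, and the mitochondrial branch is known to be highly expressed in many proliferating cancer cells.

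The sequences before the transcription starts of 5 genes are shown because the values below set these genes apart. PHGDH and PSAT1 had the lowest levels relative to control among the serine synthesis genes in the sgcMyc libraries, MTHFD1L fell there while MTHFD1 did not pass the test, and ASNS was the gene whose pattern was most like that of PHGDH. Each run is the 250 bases before the start, written 5′ to 3′ in the direction of the gene, from RefSeq on build GRCh38.p14, which is not the build of the counts (hg19). Of the 9 members, 6 had an entry, and PSPH, SHMT2 and ALDH1L2 did not. Capitals mark TGATGNAA, the C/EBP-ATF composite element, and CACGTG, the E-box core that MYC-MAX dimers bind.
PHGDH: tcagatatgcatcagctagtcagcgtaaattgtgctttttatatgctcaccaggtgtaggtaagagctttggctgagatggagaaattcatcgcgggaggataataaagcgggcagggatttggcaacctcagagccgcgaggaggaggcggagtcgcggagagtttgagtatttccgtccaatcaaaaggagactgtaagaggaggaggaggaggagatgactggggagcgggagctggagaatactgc
PSAT1: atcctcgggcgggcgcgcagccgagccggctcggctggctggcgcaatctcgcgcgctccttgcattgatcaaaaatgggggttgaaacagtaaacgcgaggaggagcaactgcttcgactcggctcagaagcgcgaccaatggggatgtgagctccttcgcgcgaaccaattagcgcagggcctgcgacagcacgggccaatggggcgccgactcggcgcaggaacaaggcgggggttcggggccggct
MTHFD1: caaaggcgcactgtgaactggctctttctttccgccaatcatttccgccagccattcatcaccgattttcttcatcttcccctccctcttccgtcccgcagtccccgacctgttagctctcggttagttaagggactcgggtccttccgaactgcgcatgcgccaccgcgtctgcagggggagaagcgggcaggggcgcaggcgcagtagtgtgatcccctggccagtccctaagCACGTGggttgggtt
MTHFD1L: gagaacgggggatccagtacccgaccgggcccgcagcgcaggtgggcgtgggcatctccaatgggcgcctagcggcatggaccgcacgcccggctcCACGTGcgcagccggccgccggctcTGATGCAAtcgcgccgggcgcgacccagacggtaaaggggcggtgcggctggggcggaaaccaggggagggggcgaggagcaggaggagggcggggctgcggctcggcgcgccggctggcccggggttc
ASNS: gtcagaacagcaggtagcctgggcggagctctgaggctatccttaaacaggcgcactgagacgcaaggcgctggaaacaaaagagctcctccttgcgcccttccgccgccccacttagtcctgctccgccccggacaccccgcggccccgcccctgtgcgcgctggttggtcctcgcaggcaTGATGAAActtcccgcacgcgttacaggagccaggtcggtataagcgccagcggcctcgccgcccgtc
The windows lie on chromosome 1 for PHGDH (chr1:119711684-119711933, plus strand), chromosome 9 for PSAT1 (chr9:78296875-78297124, plus strand), chromosome 14 for MTHFD1 (chr14:64388103-64388352, plus strand), chromosome 6 for MTHFD1L (chr6:150866236-150866485, plus strand, the entry listed before its other starts) and chromosome 7 for ASNS (chr7:97872409-97872658, minus strand).

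Both strands were searched, and matches of the 2 motifs did not overlap in any of the 5 windows. TGATGNAA was found in 1 of the 6 members, MTHFD1L, as TGATGCAA beginning at position -129 from the start, and in ASNS as TGATGAAA beginning at -68. CACGTG was found in 2 of the 6, at -154 in MTHFD1L and at -15 in MTHFD1. Over all 35116 RefSeq starts, 3.14% of windows of this length held TGATGNAA and 6.34% held CACGTG, and the motifs overlapped in 8. The windows of PHGDH, PSAT1, SHMT1 and MTHFD2 held neither string. Nor did that of PCK2, which beside ASNS was the only non-member searched for its likeness to PHGDH.

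The targeted genes were read next. EZH2 averaged 9.72 ± 0.0358 CPM in shEZH2 libraries and 74.5 ± 1.76 CPM in EV libraries, and in EOL-1 26.9 ± 1.14 CPM in sgEZH2 and 70.5 ± 0.198 CPM in sgEV libraries (SD, n = 2 each; CPM are counts per unit of library size, adjusted by TMM within a table). The MYC transcript was higher, not lower, in the libraries labelled sgcMyc: it averaged 869 ± 4.15 CPM with guide 1, 820 ± 2.53 CPM with guide 5 and 659 ± 1.93 CPM in sgEV. For the mean of both guides its log2 fold change was 0.36 (edgeR, adjusted p = 1.3e-05). MYC was also higher with shEZH2 (0.25, adjusted p = 5.7e-04) and was not called in EOL-1 (-0.04, adjusted p = 0.354). A guide cuts DNA and need not lower the transcript, and where the guides cut is not given, so this transcript does not check the label. Libraries held 13313052 to 16274568 gene counts in MV4;11 and 24574102 to 30256823 in EOL-1. Of 9 myeloid markers 8 had a row, and 7 or 8 of them averaged above 10 CPM in each group, while the T cell, erythroid and fibroblast markers had no rows, and those of B cells and epithelium summed to at most 6.37 and 18.0 CPM. In bulk RNA, fewer cells of a kind and less RNA per cell cannot be told apart.

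In the libraries labelled sgcMyc, all 3 serine synthesis genes and all 4 mitochondrial folate genes fell, while the 2 cytosolic folate genes did not pass the test. PHGDH stood 12.9-fold lower, ALDH1L2 9.82-fold lower and PSAT1 6.67-fold lower than in sgEV libraries. The 9 transcripts together took 0.0769 to 0.0808% of gene counts with the guides and 0.243 to 0.245% in sgEV libraries. Counted by edgeR's quasi-likelihood test with a Benjamini-Hochberg adjusted p below 0.05, 0 members were higher and 7 of 9 lower in the mean of both guides minus sgEV, where 18.6% of the 13948 genes tested were higher and 18.7% lower. The median log2 fold change was -1.40 over the members and -0.0029 over all genes.

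**Figure D1:**
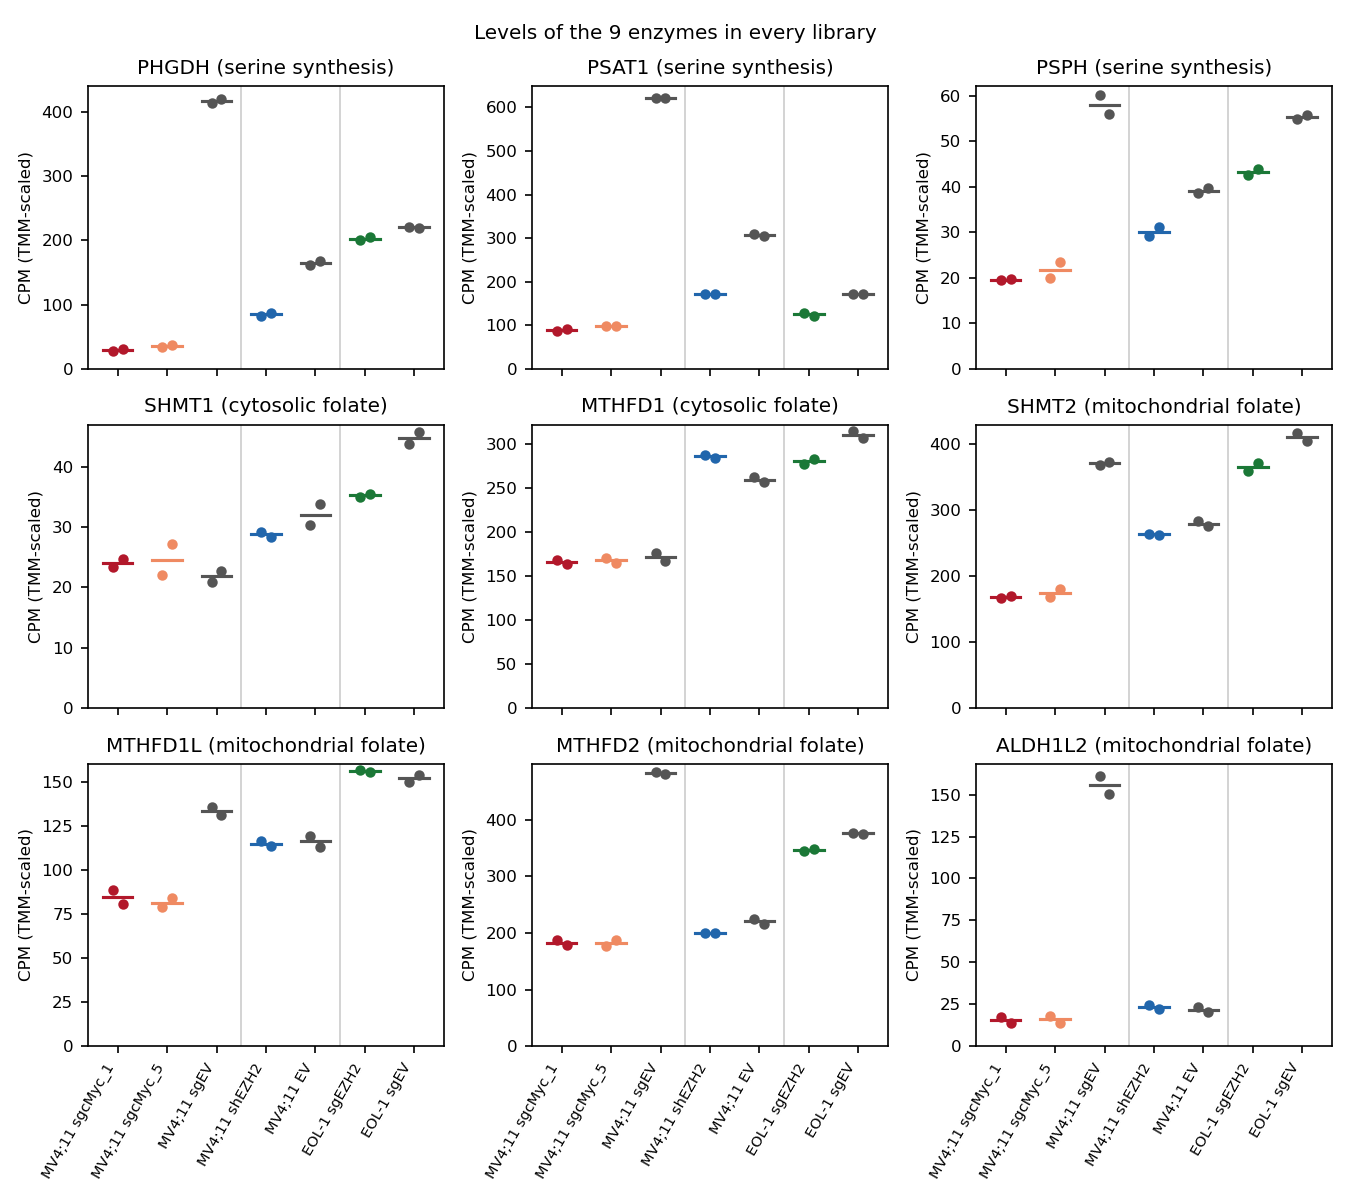
Levels of the 9 enzymes in each of 14 libraries. The vertical axis is TMM-scaled CPM from 0, points are libraries, short lines are group means (n = 2), and grey lines separate the 3 tables; PHGDH lies at 28.4 to 36.9 CPM with the cMyc guides against 415 to 421 CPM in sgEV, and ALDH1L2 has no values in EOL-1.

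PHGDH, the dehydrogenase that commits carbon to serine, had 28.4 and 31.0 CPM with guide 1 and 33.5 and 36.9 CPM with guide 5, against 415 and 421 CPM in sgEV libraries. The 4 guide libraries lay far below both controls, and the log2 fold change was -3.69 ± 0.05 (SE, adjusted p = 4.6e-14), the 29th lowest of the genes tested. PSAT1, the phosphoserine aminotransferase, had 87.0 and 90.9 CPM with guide 1, 97.7 and 97.6 CPM with guide 5, and 623 and 621 CPM in sgEV libraries. Its groups were as clearly apart, with a log2 fold change of -2.74 ± 0.04 (adjusted p = 5.9e-14). PSPH, the phosphatase of the last step, had 19.4 and 19.7 CPM with guide 1, 20.02 and 23.5 CPM with guide 5, and 60.1 and 56.0 CPM in sgEV libraries. It too was lower in all 4 guide libraries, by less (-1.49 ± 0.07, adjusted p = 7.1e-09).

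The cytosolic enzymes differed little. SHMT1, the cytosolic serine hydroxymethyltransferase, had 23.4 and 24.7 CPM with guide 1, 22.0 and 27.3 CPM with guide 5, and 21.0 and 22.7 CPM in sgEV libraries. A guide 5 library lay between the controls, and the log2 fold change of 0.16 ± 0.09 did not pass the test (adjusted p = 0.206; 95% interval -0.02 to 0.34), although it did when libraries were scaled to spike-in RNA (0.27, adjusted p = 0.0378) or without guide 5 replicate 1 (0.23, adjusted p = 0.0185); without guide 5 replicate 2 it stood at 0.08. MTHFD1, the cytosolic enzyme that interconverts the folate-bound carbon and takes up formate, had 168 and 163 CPM with guide 1, 170 and 165 CPM with guide 5, and 176 and 167 CPM in sgEV libraries. These ranges overlapped, and its value of -0.04 ± 0.04 (adjusted p = 0.442; 95% interval -0.13 to 0.04) became 0.07 with spike-in scaling.

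All 4 mitochondrial enzymes were lower with both guides. SHMT2, which splits serine in the mitochondria, had 167 and 170 CPM with guide 1, 168 and 181 CPM with guide 5, and 369 and 374 CPM in sgEV libraries. No guide library came near the controls (-1.12 ± 0.04, adjusted p = 5.3e-10). MTHFD2, the mitochondrial dehydrogenase and cyclohydrolase, had 187 and 179 CPM with guide 1, 177 and 187 CPM with guide 5, and 483 and 481 CPM in sgEV libraries. Its 4 guide libraries stood close together and well below the controls (-1.40 ± 0.04, adjusted p = 4.1e-11). MTHFD1L, the synthetase that releases formate, had 88.5 and 80.7 CPM with guide 1, 79.0 and 84.2 CPM with guide 5, and 136 and 132 CPM in sgEV libraries. It had the smallest fall of the 7, still with no overlap (-0.69 ± 0.05, adjusted p = 4.7e-07). ALDH1L2, which oxidises formyl-folate to carbon dioxide with production of NADPH, had 17.3 and 14.02 CPM with guide 1, 17.9 and 14.2 CPM with guide 5, and 161 and 150 CPM in sgEV libraries. Its guide libraries stood far below both controls (-3.30 ± 0.08, adjusted p = 5.0e-11).

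Guide by guide the picture was alike. With guide 1 alone 7 of 9 members were lower and 0 higher (background 16.0 and 16.2% of genes), and with guide 5 alone again 7 lower and 0 higher (15.5 and 15.7%), but both sets use the same sgEV libraries. The direct difference of the guides sets guide 5 against guide 1, with no control in the contrast. The sgEV libraries still entered the filter, scaling and estimate of spread behind its p-values. There, 0 of 9 members passed the adjusted test with edgeR or DESeq2 (2, PHGDH and PSAT1, had an unadjusted p below 0.05 with edgeR), where 0.409% of all genes passed with edgeR (57 genes). Log2 differences of guide 5 minus guide 1 ran from -0.05 for MTHFD1L to 0.24 ± 0.07 for PHGDH. PHGDH was higher in both guide 5 libraries than in either guide 1 library (adjusted p = 0.285; 95% interval 0.10 to 0.39), and the difference passed the test without guide 5 replicate 1 (0.31, adjusted p = 0.0233).

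Other features moved with this contrast. Mitochondrial genome transcripts took 3.14 to 3.44% of gene counts in guide libraries and 2.41 to 2.47% in sgEV libraries. The summed level of the 8 myeloid markers with a row was 5006 to 5394 CPM with the guides and 1893 to 1907 CPM in sgEV. Their part in the fall of the enzymes was not tested.

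In MV4;11 with the EZH2 hairpin, the 3 serine synthesis genes fell again, by less than with the cMyc guides, and the folate genes lay close to control. Of 9 members 1 was higher, MTHFD1, and 4 were lower, the serine synthesis genes and MTHFD2 (background 13.4% higher and 14.2% lower of 13591 genes). The median was -0.14 over the members and 0.0024 over all genes.

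**Figure D2:**
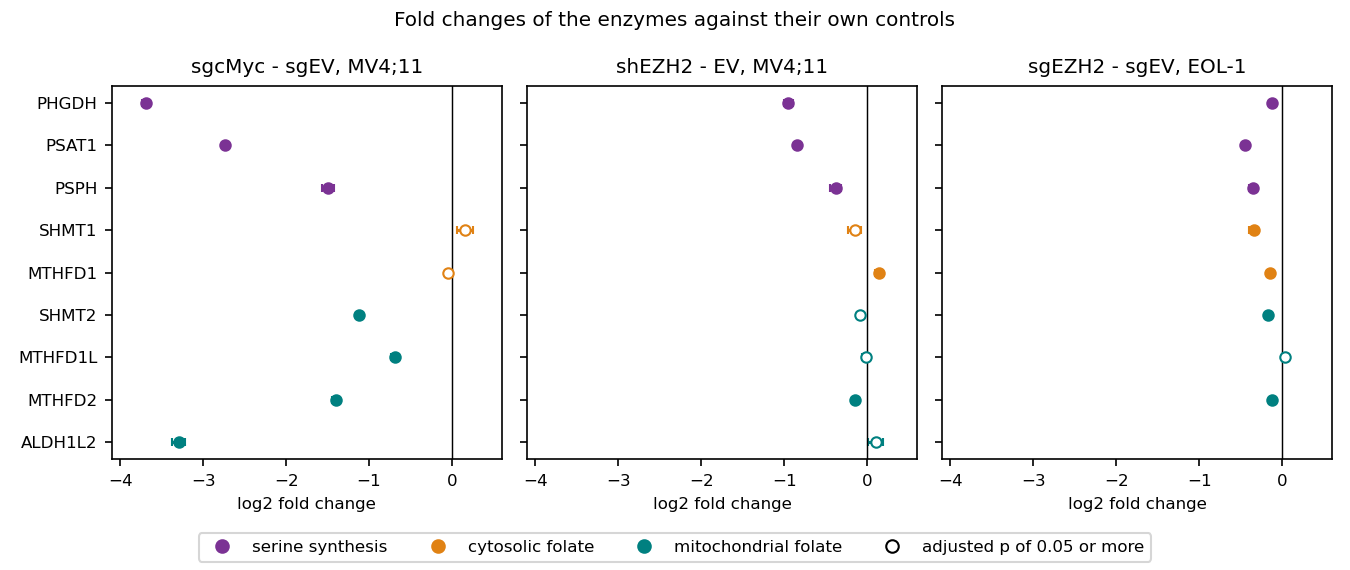
Log2 fold changes of the 9 enzymes against their own controls in the 3 main comparisons. Points are edgeR estimates with SE bars, purple for serine synthesis, orange for cytosolic and teal for mitochondrial folate enzymes, and open points have an adjusted p of 0.05 or more; PHGDH stands at -3.69, -0.95 and -0.12 from left to right.

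PHGDH had 82.8 and 87.5 CPM in shEZH2 libraries, against 161 and 168 CPM in EV libraries. The groups were well apart, at 51.8% of control (-0.95 ± 0.05, adjusted p = 2.8e-07). PSAT1 had 172 and 171 CPM in shEZH2 libraries, against 309 and 306 CPM in EV libraries. It too was lower in both libraries (-0.84 ± 0.04, adjusted p = 9.7e-08). PSPH had 29.1 and 31.2 CPM in shEZH2 libraries, against 38.7 and 39.7 CPM in EV libraries. The fall was smaller than those of PHGDH and PSAT1 in size (-0.38 ± 0.07, adjusted p = 0.0018), and these 3 calls held under every alternative run.

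Among the folate enzymes with shEZH2, changes stayed small. MTHFD1 had 287 and 284 CPM in shEZH2 libraries, against 262 and 256 CPM in EV libraries. Both hairpin libraries were above both controls (0.14 ± 0.04, adjusted p = 0.0192), a call that was lost with DESeq2 (adjusted p = 0.0789), with spike-in scaling (0.09, adjusted p = 0.475) and without either shEZH2 library (0.223 and 0.153 as adjusted p). MTHFD2 had 200 and 199 CPM in shEZH2 libraries, against 225 and 216 CPM in EV libraries. It was lower in both (-0.14 ± 0.04, adjusted p = 0.0226), and this call was lost under the same alternatives, with adjusted p-values of 0.107 to 0.213. SHMT1 had 29.2 and 28.5 CPM in shEZH2 and 30.3 and 33.8 CPM in EV libraries, and SHMT2 264 and 263 CPM against 283 and 276 CPM. Neither passed the test (-0.15 ± 0.08, adjusted p = 0.165 for SHMT1, and -0.09 ± 0.04, adjusted p = 0.121 for SHMT2). Their groups did not overlap, which by order alone has a probability of 0.333 with 2 against 2 libraries. SHMT1 passed without EV replicate 1 (-0.23, adjusted p = 0.0348) but stood at -0.07 without EV replicate 2. SHMT2 passed without EV replicate 2 (-0.11, adjusted p = 0.0252) and stood at -0.07 without EV replicate 1.

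MTHFD1L had 116 and 114 CPM in shEZH2 libraries, against 120 and 113 CPM in EV libraries. ALDH1L2 had 24.6 and 22.5 CPM in shEZH2 libraries, against 23.5 and 20.3 CPM in EV libraries. The groups overlapped for both genes, with 95% intervals of -0.11 to 0.08 for MTHFD1L and -0.07 to 0.29 for ALDH1L2. Mitochondrial genome transcripts took 2.79 to 2.80% of gene counts in shEZH2 and 2.18 to 2.22% in EV libraries, and the myeloid markers summed to 1654 to 1681 and 1524 to 1544 CPM. The sum does not show each marker, as MPO averaged above 10 CPM in EV and not in shEZH2 libraries. The part of these transcripts and markers in the changes was not tested.

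In EOL-1, 7 of 8 members fell with the EZH2 guide and none rose (background 11.8% lower and 15.1% higher of 13890 genes), and the falls were small. The median was -0.16 over the members and 0.0051 over all genes. PSAT1, PSPH and SHMT1 had the lowest values. The myeloid markers summed to 2642 to 2662 CPM in sgEZH2 and 1034 to 1044 CPM in sgEV libraries, and mitochondrial genome transcripts took 1.14% and 1.05 to 1.06%; their part in the falls was not tested.

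PSAT1 had 129 and 122 CPM in sgEZH2 libraries, against 172 and 172 CPM in sgEV libraries. Both guide libraries were clearly lower (-0.45 ± 0.04, adjusted p = 2.6e-08). PSPH had 42.7 and 43.8 CPM in sgEZH2 libraries, against 55.0 and 55.7 CPM in sgEV libraries. It was lower in both as well (-0.36 ± 0.05, adjusted p = 1.6e-05). PHGDH had 201 and 205 CPM in sgEZH2 libraries, against 222 and 220 CPM in sgEV libraries. Its groups did not overlap but lay close (-0.12 ± 0.03, adjusted p = 0.0080), and the call was lost without sgEV replicate 1 (adjusted p = 0.123) or 2 (adjusted p = 0.0909).

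Both cytosolic enzymes were lower in EOL-1. SHMT1 had 35.1 and 35.6 CPM in sgEZH2 libraries, against 43.9 and 45.8 CPM in sgEV libraries (-0.34 ± 0.05, adjusted p = 6.2e-05). MTHFD1 had 277 and 282 CPM in sgEZH2 libraries, against 314 and 306 CPM in sgEV libraries (-0.15 ± 0.03, adjusted p = 0.0018), and lost its call without sgEV replicate 1 (adjusted p = 0.0775). Neither gene's groups overlapped, which is description only. Of the mitochondrial enzymes, SHMT2 had 360 and 373 CPM in sgEZH2 libraries, against 417 and 406 CPM in sgEV libraries (-0.17 ± 0.03, adjusted p = 6.6e-04). MTHFD2 had 345 and 348 CPM in sgEZH2 libraries, against 376 and 375 CPM in sgEV libraries (-0.12 ± 0.03, adjusted p = 0.0070), with adjusted p-values of 0.128 and 0.119 without sgEV replicate 1 or 2. Both were lower in each guide library. MTHFD1L had 157 and 156 CPM in sgEZH2 libraries, against 150 and 154 CPM in sgEV libraries, and its value of 0.04 ± 0.04 did not pass the test (adjusted p = 0.471; 95% interval -0.03 to 0.11).

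The effects of EZH2 depletion were compared between the lines in a single fit over 8 libraries, as the effect in EOL-1 minus the effect in MV4;11. Line, count table and depletion tool, guide or hairpin, cannot be told apart in this contrast. Of 8 members, 2 had a higher and 1 a lower value (background 14.1 and 12.5% of 13543 genes). PHGDH differed by 0.82 ± 0.06 (adjusted p = 3.6e-08) and PSAT1 by 0.38 ± 0.05 (adjusted p = 4.3e-05), as both fell less in EOL-1. MTHFD1 differed by -0.29 ± 0.05 (adjusted p = 2.1e-04), lower in EOL-1 sgEZH2 and higher in MV4;11 shEZH2 libraries than in their controls. PSPH fell by a like amount in each line, with a difference of 0.01 ± 0.08 and a 95% interval of -0.14 to 0.17, and SHMT1, SHMT2, MTHFD1L and MTHFD2 had values of -0.20 to 0.05 that did not pass the test. SHMT1, at -0.20, passed without MV4;11 EV replicate 2 (-0.27, adjusted p = 0.0473) and stood at -0.11 without EV replicate 1.

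Mitochondrial enzymes were set against their cytosolic counterparts as a log2 ratio of estimated counts within each library, which does not depend on library scaling. Transcript length also enters a ratio, so its changes are read and not its level. In the sgcMyc libraries all 3 ratios were lower than in sgEV. The log2 ratio SHMT2/SHMT1 was 2.83 and 2.78 with guide 1, 2.93 and 2.73 with guide 5, and 4.13 and 4.04 in sgEV libraries. MTHFD2/MTHFD1 was 0.15 and 0.13 with guide 1, 0.06 and 0.18 with guide 5, and 1.46 and 1.52 in sgEV libraries. MTHFD1L/MTHFD1 was -0.93 and -1.01 with guide 1, -1.10 and -0.97 with guide 5, and -0.38 and -0.35 in sgEV libraries. The 4 guide libraries lay below both sgEV libraries in each ratio, and the mean differences were -1.27, -1.36 and -0.64. Against the hairpin control EV the order was not the same, with no test. In EV libraries MTHFD2/MTHFD1 was -0.22 and -0.25 and MTHFD1L/MTHFD1 was -1.13 and -1.18, below all 4 guide libraries. SHMT2/SHMT1 was 3.22 and 3.03 in EV libraries, above all 4. In all 3 ratios the sgEV libraries of MV4;11 stood above every other group.

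**Figure D3:**
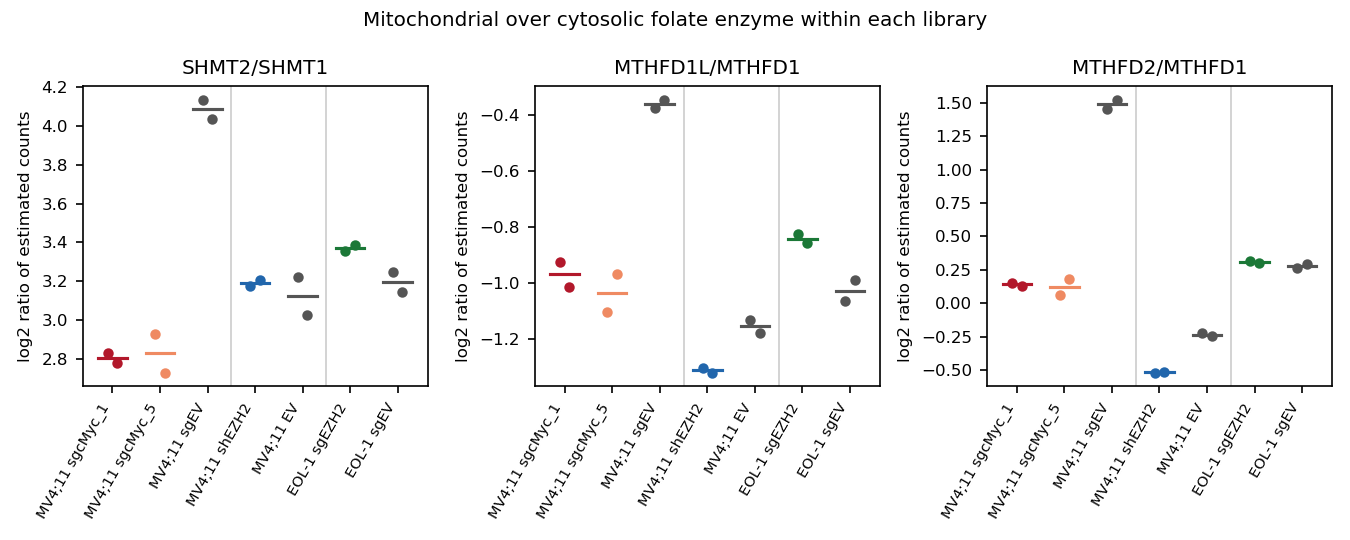
Mitochondrial over cytosolic folate enzyme in every library. The vertical axes are log2 ratios of estimated counts (axes do not start at 0), points are libraries and short lines group means (n = 2); SHMT2/SHMT1 is 2.73 to 2.93 with the cMyc guides and 4.04 to 4.13 in sgEV.

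With EZH2 depletion the ratios moved less and not in a common direction. MTHFD2/MTHFD1 was -0.52 and -0.51 in shEZH2 libraries, against -0.22 and -0.25 in EV libraries. MTHFD1L/MTHFD1 was -1.30 and -1.32 in shEZH2 libraries, against -1.13 and -1.18 in EV libraries. Both were lower with the hairpin, by 0.28 and 0.16 log2 units, while SHMT2/SHMT1 overlapped (3.17 and 3.21 in shEZH2, against 3.22 and 3.03 in EV) and its difference of 0.06 changed sign without EV replicate 2 (-0.03). In EOL-1, SHMT2/SHMT1 was 3.35 and 3.39 in sgEZH2 libraries, against 3.25 and 3.14 in sgEV libraries, and MTHFD1L/MTHFD1 was -0.83 and -0.86 against -1.06 and -0.99. Both were higher with the guide, by 0.17 and 0.19. MTHFD2/MTHFD1 differed by 0.03, and by 0.013 without sgEV replicate 1 and 0.046 without sgEV replicate 2. By exact permutation, two-sided, none of 15 ratio tests could pass 0.05: the smallest p is 0.133 for the 4 guide libraries against 2 controls and 0.333 for 2 against 2, and the smallest p adjusted over the tests was 0.357.

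Levels in the controls themselves differed. CPM are scaled within each table, so levels across tables are given as values with no test. In MV4;11, the guide control sgEV exceeded the hairpin control EV 7.11-fold for ALDH1L2, 2.54-fold for PHGDH, 2.19-fold for MTHFD2 and 2.02-fold for PSAT1, while SHMT1 and MTHFD1 stood at 0.681 and 0.662 of EV. For PHGDH the group means ran 418 (sgEV, MV4;11), 221 (sgEV, EOL-1), 203 (sgEZH2), 164 (EV), 85.2 (shEZH2), 35.2 (guide 5) and 29.7 CPM (guide 1), with no overlap between neighbours. For PSAT1 the order was 622 (sgEV, MV4;11), 307 (EV), 172 (sgEV, EOL-1), 171 (shEZH2), 125 (sgEZH2), 97.7 (guide 5) and 89.0 CPM (guide 1), and the EOL-1 sgEV and shEZH2 levels did not differ beyond their spread. ALDH1L2 ran 156 CPM in sgEV and 15.7 to 23.6 CPM in the other 4 MV4;11 groups. Its level with the cMyc guides (15.7 and 16.0 CPM) was below EV (21.9 CPM) as well as sgEV. The highest mean over the lowest was 14.1-fold for PHGDH and 1.87-fold for MTHFD1.

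Genes were ranked by how closely their values followed PHGDH over the 14 libraries (Pearson r of log2 CPM relative to the controls of the same table, 8911 genes of at least 10 CPM). The 5 closest were ASNS (r = 0.999), which makes asparagine, CARS (0.997), TARS (0.997) and SARS (0.996), which charge tRNAs with cysteine, threonine and serine, and PCK2 (0.997), the mitochondrial phosphoenolpyruvate carboxykinase. These r values describe libraries that share controls, and the sgcMyc libraries hold most of the range of PHGDH. Log2 fold changes with guide 1, guide 5, shEZH2 and the EOL-1 guide were -3.42, -3.29, -0.92 and -0.15 for ASNS, and -2.97, -2.96, -1.01 and -0.14 for PCK2. Among the members, PSAT1 ranked 11th, MTHFD2 29th, PSPH 41st, SHMT2 44th and MTHFD1L 75th, while MTHFD1 ranked 3892nd (r = 0.10) and SHMT1 6511th (r = -0.58).

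Related gene lists were counted in the 3 main comparisons, beside the share of all genes called, which was 18.6% higher and 18.7% lower with the cMyc guides, 13.4 and 14.2% with shEZH2 and 15.1 and 11.8% in EOL-1. Of the genes of the ATF4 amino acid response, 14 of 15 fell and none rose in the mean of the cMyc guides minus sgEV (median -1.78), among them ATF4 itself (-1.83), ASNS (-3.35), the mTORC1 inhibitor DDIT4 (-3.13) and the stress gene CHAC1 (-3.42). Means in sgEV and the hairpin control EV were 561 and 276 CPM for ATF4 and 189 and 71.8 CPM for ASNS. They were 84.1 and 11.1 CPM for DDIT4 and 44.5 and 4.87 CPM for CHAC1, with no test. With the guides these genes averaged 158, 18.5, 9.62 and 4.16 CPM, each below EV as well as sgEV, though CPM were scaled within each table. With shEZH2, 8 of 14 fell (median -0.26) and SLC7A5 rose (0.27, not with spike-in scaling, adjusted p = 0.0563), and among the falls were the cystine transporter SLC7A11 (-1.60), ASNS (-0.92) and ATF4 (-0.30). In EOL-1, 8 of 14 fell and 1 rose (median -0.14), with CHAC1 at -0.60, TRIB3 at -0.40 (4.29 against 5.68 CPM) and ASNS at -0.15. SLC7A5, which rose with shEZH2, fell in EOL-1 (-0.24, edgeR, adjusted p = 1.2e-05), and SLC7A11 was the gene that rose (0.20). Of the genes of serine transport and use, 7 of 11 fell and 1 rose with the cMyc guides (median -0.28), the falls including CBS, which joins serine to homocysteine (-3.66, a gene with a near-identical copy), and the carriers SLC38A1 (-1.93), SLC1A5 (-1.21) and SLC38A2 (-1.05). Means in sgEV, EV and with the guides were 52.0, 9.10 and 4.10 CPM for CBS and 51.5, 9.39 and 13.5 CPM for SLC38A1. They were 823, 539 and 355 CPM for SLC1A5, and 446, 275 and 216 CPM for SLC38A2. With shEZH2 5 of 11 fell and 1 rose, with SLC38A1 lowest at -2.14 (median -0.24), and in EOL-1 5 fell and 1 rose, with CBS at -0.64 (median -0.10).

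**Figure D4:**
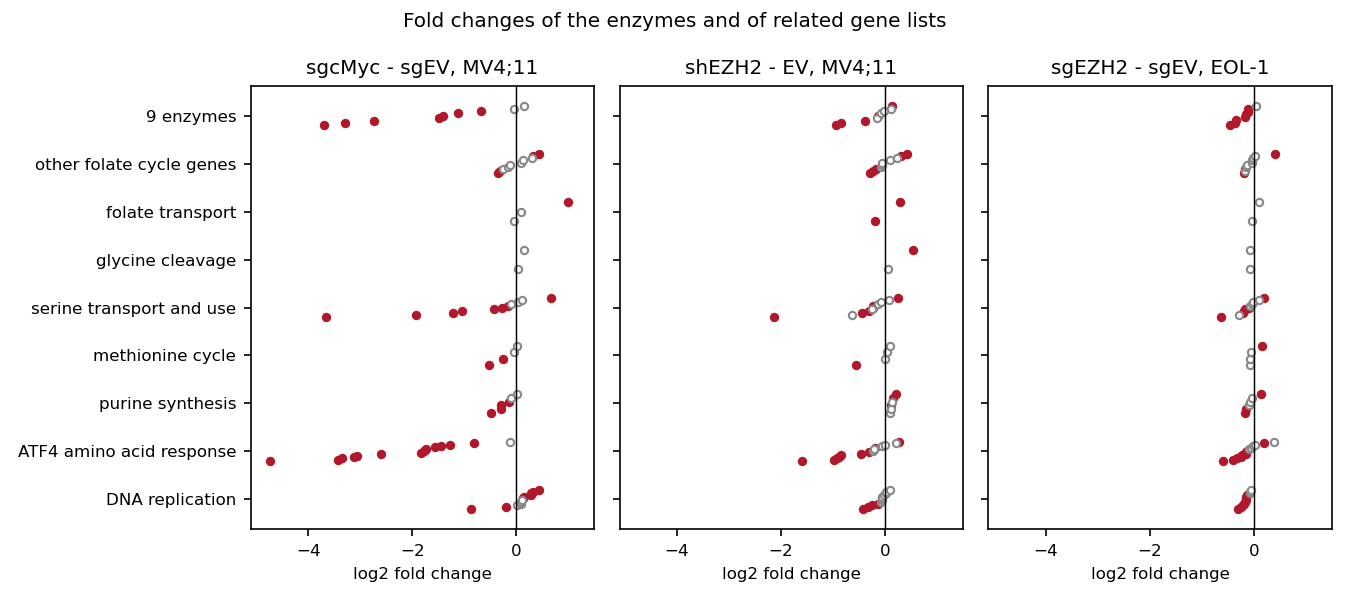
Log2 fold changes of the 9 enzymes and of 8 related gene lists in the 3 main comparisons. Each point is a gene, red where its adjusted p is below 0.05 and open otherwise; 14 of 15 genes of the ATF4 amino acid response are lower with the cMyc guides, and 8 of 14 in each EZH2 comparison.

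Counts over the rest of the folate pathway are small, and at most 3 of the 10 other folate cycle genes were called in a direction in any of the 3 comparisons (over all genes, 18.6% higher and 18.7% lower with the cMyc guides, 13.4 and 14.2% with shEZH2, 15.1 and 11.8% in EOL-1), so no change of the pathway is read from them. Their medians were -0.01 with the cMyc guides, -0.06 with shEZH2 and -0.09 in EOL-1. Among them 2 rose and 2 fell with the cMyc guides. TYMS, the thymidylate synthase, was among the rises (0.33), and the methionine synthase MTR was among the falls (-0.34), a call that scaling to spike-in RNA ended (adjusted p = 0.0764). With shEZH2 2 rose and 3 fell, with MTR at 0.30 (a call also ended by spike-in scaling, with an adjusted p of 0.164) and TYMS at -0.23, and in EOL-1 1 rose, the folylpolyglutamate hydrolase GGH (0.40), and 2 fell. Of the folate transporters, 1 of 3 rose with the cMyc guides, FOLR2 (0.99, not called with DESeq2, adjusted p = 0.244), 1 of 2 rose and 1 fell with shEZH2, and neither of 2 passed in EOL-1. FOLR2 had a very low level, 0.787 CPM in sgEV and 1.58 CPM with the guides. Its value depended on single libraries, at 0.69 without sgEV replicate 1 and 1.38 without sgEV replicate 2. Of 2 glycine cleavage genes 1 rose with shEZH2, GCSH (0.53), and none was called in the other comparisons. Of the methionine cycle, 2 of 4 fell with the cMyc guides, 1 fell with shEZH2 and 1 rose in EOL-1, with AHCYL1 at -0.53 with the cMyc guides and -0.56 with shEZH2.

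Purine synthesis, which spends the formyl units, had 4 of 6 genes lower with the cMyc guides (18.7% of all genes), with PPAT at -0.49 and GART at -0.29 (median -0.22). With shEZH2 3 of 6 were higher (13.4% of all genes), with ATIC at 0.21 (median 0.12), and in EOL-1 1 was higher and 2 were lower (15.1 and 11.8% of all genes; median -0.09). GART, PAICS and ATIC were not called with the cMyc guides under spike-in scaling (adjusted p = 0.0718, 0.0630 and 0.734), and none of the 3 rises with shEZH2 was called under it (0.148 to 0.549). Of 12 DNA replication genes, 6 rose with the cMyc guides (18.6% of all genes), with PCNA, the polymerase clamp, at 0.44, and 2 fell, with CDT1, a replication licensing factor, at -0.88 (median 0.12). With shEZH2 4 of the 12 fell (14.2% of all genes), with the helicase subunit MCM3 at -0.43 (median -0.05). Of these falls, MCM2 and GINS2 were not called with DESeq2 (adjusted p = 0.0518 and 0.174), nor MCM2 with spike-in scaling (0.0982). In EOL-1 9 fell (11.8% of all genes), with the loading factor CDC6 at -0.31 (median -0.15).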

How the data were processed

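RNA-seq of 14 libraries in 7 groups was analysed from 3 tables, grouped by sample titles. Table columns were matched to the longer titles by cell line, target, guide and replicate number; the hairpin and the EOL-1 guide carry their own column names, so that match is an inference. Raw columns, as deposited by the authors, give an estimated count for each gene. RSEM, DESeq and hg19 are named in the submitters' processing notes, while versions, aligner, annotation and strandedness were not given in the sources used here. Log2 normalized columns made by the authors and, in EOL-1, a base mean signal column deposited by the authors were not used. Chromosome windows are from RefSeq on GRCh38.p14.

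Estimated counts were rounded. Spike-in rows (56 per MV4;11 table, 1.06 to 1.30% of counts) were left out. After filterByExpr and TMM scaling, each table was fitted with edgeR 4.0.16 (robust glmQLFit, then the quasi-likelihood test glmQLFTest) with Benjamini-Hochberg adjustment over all genes at 0.05; the sgcMyc table was fitted as 3 groups, and the lines were compared by an interaction contrast over both tables. SE is the log2 fold change over the root of F, and intervals are 95% normal. They are narrower than the quasi-likelihood test implies. For SHMT1 with shEZH2 the interval was -0.300 to -0.003, while the unadjusted p of that test was 0.070. Ratios had 0.5 added to counts and were compared by exact permutation. Groups of 2 against 2 libraries lie fully apart by order alone with a probability of 0.333. Lack of overlap is therefore given as description only. Code was tested on simulated data. Alternatives were RLE scaling, DESeq2 1.42.0, other count filters, no robust step, a replicate block, spike-in scaling and leaving out each library.

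No pair of replicate libraries agreed within sampling noise (chi-square over degrees of freedom, 1.47 to 5.47). Members and gene lists were chosen with earlier results of these data known. Named are the members, EZH2, MYC, the 5 genes most like PHGDH and, from each list, those among the 4 smallest p-values of a comparison; some of these are not reported here. Low-level copies PSAT1P3, PSPHP1 and MTHFD1P1 reached at most 1.57 CPM, and reads shared with them are uncertain.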

Additional observations from a re-analysis of the deposited data

Results flagged for a closer look

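The 3 results with a tested difference between the cell lines are listed for a closer look. For PHGDH the effect of EZH2 depletion in EOL-1 minus that in MV4;11 was 0.82 (edgeR, adjusted p = 3.6e-08), from log2 fold changes of -0.12 in EOL-1 and -0.95 in MV4;11. For PSAT1 it was 0.38 (adjusted p = 4.3e-05), from -0.45 and -0.84. For MTHFD1 it was -0.29 (adjusted p = 2.1e-04), from -0.15 and 0.14. The lines differ in table, depletion tool and remaining EZH2 transcript (38.2% of control in EOL-1 and 13.0% in MV4;11), and these cannot be told apart. Outliers were not looked for, since each group holds 2 libraries.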

How the results depend on the processing

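The 7 falls with the cMyc guides, the 3 serine synthesis falls with shEZH2 and the 3 differences between the lines kept direction and call under every alternative run. Counts of called genes fell with DESeq2 to 1844 with shEZH2, 3219 for the mean of the guides, 2625 with guide 1, 2548 with guide 5, 1870 in EOL-1 and 2041 between the lines, against 3758, 5203, 4488, 4354, 3738 and 3593 with edgeR. Spike-in scaling moved the median of all genes to -0.04 with shEZH2 and 0.11 with the guides, left 2212 called genes with shEZH2 and 1 between the guides (57 with TMM), and put 36.4% of shEZH2 calls and 72.8% of guide calls higher, against 48.5 and 49.8%. Members called higher with shEZH2 fell to 0 with DESeq2, with spike-in scaling and without a shEZH2 library, and became 1 for the mean of the guides and for guide 5 with spike-in scaling. MTHFD1 for the mean of the guides turned to 0.072 and MTHFD1L between the guides to 0.0093 with spike-in scaling. Leaving out 1 library gave 2476 to 4272 called genes with shEZH2, 2935 to 6176 for the mean of the guides, 2477 to 5758 with guide 1, 2360 to 5076 with guide 5 and 9 to 872 between the guides. It gave 0 to 1 members higher with shEZH2, for the mean of the guides, with guide 5 and between the guides, 4 to 7 members lower in EOL-1 and 1 to 2 lower between the lines. Without a library, signs turned for values near 0 that did not pass the test, whose ranges were -0.034 to 0.162 for SHMT2/SHMT1 with shEZH2, -0.059 to 0.023 for MTHFD1L with shEZH2 and -0.113 to 0.018 between the guides, and between the lines -0.029 to 0.074 for PSPH and -0.0013 to 0.056 for MTHFD2. The cause of these shifts was not tested.

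Replicate numbers were not shown to pair libraries: deviations of same-numbered libraries correlated at 0.119 for shEZH2 and EV, 0.0227 and -0.0363 for guides 1 and 5 with sgEV, 0.144 between the guides and -0.0954 in EOL-1. A replicate block gave 4710 called genes with shEZH2, 5657 for the mean of the guides, 3776 in EOL-1, 3911 between the lines and 129 between the guides; of the members' calls, it added SHMT2 with shEZH2 (-0.09, adjusted p = 0.0387).

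With 2 libraries a group, a lone library left by an omission was taken to vary like the others. The lowest member count was 197, in ALDH1L2 with guide 5. The smallest calls (MTHFD1 and MTHFD2 with shEZH2; PHGDH, MTHFD1 and MTHFD2 in EOL-1) were each lost without at least 1 library.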
